A study of Mus musculus with 6 samples.

Results

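The genes described here are 9 genes of steroid hormone synthesis, chosen by name: Cyp11a1, Star, Hsd3b1, Hsd3b6, Cyp17a1, Hsd17b2, Fdx1, Fdxr and Stard3. All 9 symbols were among the 23238 symbols counted, and 6 of them had enough counts for a test. RNA tags from transcript 3′ ends were counted in 6 libraries, 3 from an EGFP stable cell line and 3 from an EWS-OCT-4 stable cell line, both labelled as embryonic stem cells of the mouse strain 129/Ola. The second line carries the fusion EWS-OCT4A-GFP. EWS-OCT-4 joins the Ewing sarcoma protein EWS to the stem cell factor OCT-4. Both lines derive from cells named Niwa, both were grown with LIF, and both received doxycycline at 1 µg/ml, which lowers their endogenous OCT-4. Higher and lower below always mean the EWS-OCT-4 line against the EGFP line, since no library without doxycycline was analysed here. The labels do not say whether each line is 1 clone, nor whether its 3 libraries were separate cultures, so the p-values reflect a spread between libraries that may be technical.

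Steroid hormones are made from cholesterol. Cholesterol is carried to the inner mitochondrial membrane, where the enzyme encoded by Cyp11a1 cuts off its side chain to give pregnenolone, using electrons passed on by ferredoxin (Fdx1) from ferredoxin reductase (Fdxr). Enzymes of the Hsd3b family then make progesterone, and the enzyme encoded by Cyp17a1 opens the path to androgens. In the mouse placenta, trophoblast giant cells are known for this pathway. Star is the cholesterol carrier of adrenal gland and gonad, and Stard3 is a relative that has been proposed for the same step in the human placenta, which lacks STAR.

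Levels are in CPM, counts scaled to a common library size with TMM factors, as mean ± SD with n = 3 libraries per line. A gene was called when its adjusted p was under 0.05 in edgeR's quasi-likelihood test with Benjamini-Hochberg adjustment over 13467 tested genes, and log2 differences are given with their standard error (SE). Libraries held 10978025 to 14935887 counts, so 1 count stood for 0.0650 to 0.0923 CPM. Replicate 3 of each line stood apart from replicates 1 and 2 (chi-square divided by its degrees of freedom 24.7 to 33.2, against 3.90 and 4.09 between replicates 1 and 2). In the EGFP line the 12 markers of trophoblast and other placental cells summed to 4550 to 5136 CPM and the 8 markers of embryonic stem cells to 308 to 377 CPM. In the EWS-OCT-4 line the same sums were 254 to 282 CPM and 4115 to 4619 CPM, so the labelled cell type was matched by its markers less well in the EGFP line. Most of the placental sum in the EGFP line came from Krt8, Krt18 and Tfap2c (means 1755, 1617 and 1138 CPM). In the EWS-OCT-4 line most of it came from Tfap2c (mean 240 CPM). In bulk RNA, fewer cells of a type and less RNA per cell cannot be told apart.

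The side-chain cleavage gene and its electron donor fell together while the reductase between them and the cell's electron supply did not pass the test. The start regions of these 3 genes are shown for that reason, 250 bases before to 50 bases after the start, from RefSeq (GRCm38.p6). They are Cyp11a1 at chr9:58014702-58015001 on the plus strand, Fdx1 at chr9:51963553-51963852 on the minus strand and Fdxr at chr11:115276920-115277219 on the minus strand. Capitals mark TCAAGG, a core of the site that nuclear receptors of the NR5A family (Nr5a1 and Nr5a2) bind in many steroid genes, and TATAA, the core of the TATA box, each on either strand.
Cyp11a1: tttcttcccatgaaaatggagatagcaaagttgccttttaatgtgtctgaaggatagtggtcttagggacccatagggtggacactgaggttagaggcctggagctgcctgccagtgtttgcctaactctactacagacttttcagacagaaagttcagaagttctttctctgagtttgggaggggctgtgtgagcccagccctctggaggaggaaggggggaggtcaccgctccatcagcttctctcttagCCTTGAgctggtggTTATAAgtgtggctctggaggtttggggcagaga
Fdx1: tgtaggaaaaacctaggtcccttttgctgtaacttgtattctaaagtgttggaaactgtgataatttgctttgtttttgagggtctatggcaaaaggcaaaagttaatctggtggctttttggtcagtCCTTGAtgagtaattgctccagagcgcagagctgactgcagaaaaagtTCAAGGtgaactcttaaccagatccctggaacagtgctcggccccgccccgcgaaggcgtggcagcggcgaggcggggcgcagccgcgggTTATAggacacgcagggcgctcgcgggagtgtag
Fdxr: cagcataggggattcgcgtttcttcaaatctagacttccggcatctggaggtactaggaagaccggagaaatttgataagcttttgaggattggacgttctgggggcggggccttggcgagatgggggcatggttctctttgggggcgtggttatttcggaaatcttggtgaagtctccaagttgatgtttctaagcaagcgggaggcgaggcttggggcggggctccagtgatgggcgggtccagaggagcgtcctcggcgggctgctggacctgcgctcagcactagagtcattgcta

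The Cyp11a1 window held TCAAGG once, in reverse as CCTTGA, beginning at base 3 after the RefSeq start, and TATAA and its reverse, overlapping, from base 17. These letters lay downstream of the annotated start. The Fdx1 window held TCAAGG on both strands, beginning at -122 and -74. It held TATAA in reverse as TTATA from base 17, also downstream of the annotated start. The Fdxr window held neither sequence. Of 32851 start windows in the table, 14.4% held TCAAGG on either strand and 24.9% held TATAA. Windows were found for 6 of the 9 genes, 7 windows in all, since Cyp11a1 had a second, upstream one (chr9:57997774-57998073) that held neither sequence. TCAAGG also occurred at -128 and 11 in the window of Hsd3b1, which had no count in any library. Neither TCAAGG nor TATAA was found in the windows of Hsd3b6 and Stard3. GATAA, the core of the site of GATA factors, was found on 1 strand or the other in Hsd3b1, Hsd3b6, Fdx1, Fdxr and Stard3 and in 25.4% of all windows. GCCNNNGGC, a site of AP-2 factors, was in none of the 7 and in 16.6% of all windows. The 3 printed windows were chosen by the genes' results, and any part of these sequences in the levels was not tested.

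Of the 9 genes, 3 fell (Cyp11a1, Hsd17b2 and Fdx1), 1 rose (Star), 2 did not pass the test (Fdxr and Stard3) and 3 had too few counts for it (Hsd3b1, Hsd3b6 and Cyp17a1). The background was large: 67.4% of all tested genes were called, 34.1% as lower and 33.3% as higher, so 4 calls among 6 tested genes are near the share over all genes. The EWS-OCT-4 libraries lay wholly below the EGFP libraries for 5 of the 6 (36.7% of all tested genes) and wholly above for Star (36.0% of all). Without both libraries numbered 3, 5 of 7 tested genes were called (75.6% of all), in a test against a 1.5-fold change 4 of 6 (47.5% of all), and at a mean of at least 10 CPM 2 of 4 (71.0% of all). The median log2 difference of the 6 was -0.75, against 0.00 (-0.0042) over all tested genes. A gene entered the test when at least 3 libraries reached 0.784 CPM. Cyp11a1 and Hsd17b2 did so in all 3 libraries of the EGFP line only, so the filter itself favoured a fall, and the other 4 did so in both lines. Genes below that entered through 1 line only are named as such, and their tests give a size rather than support for a direction.

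**Figure D1:**
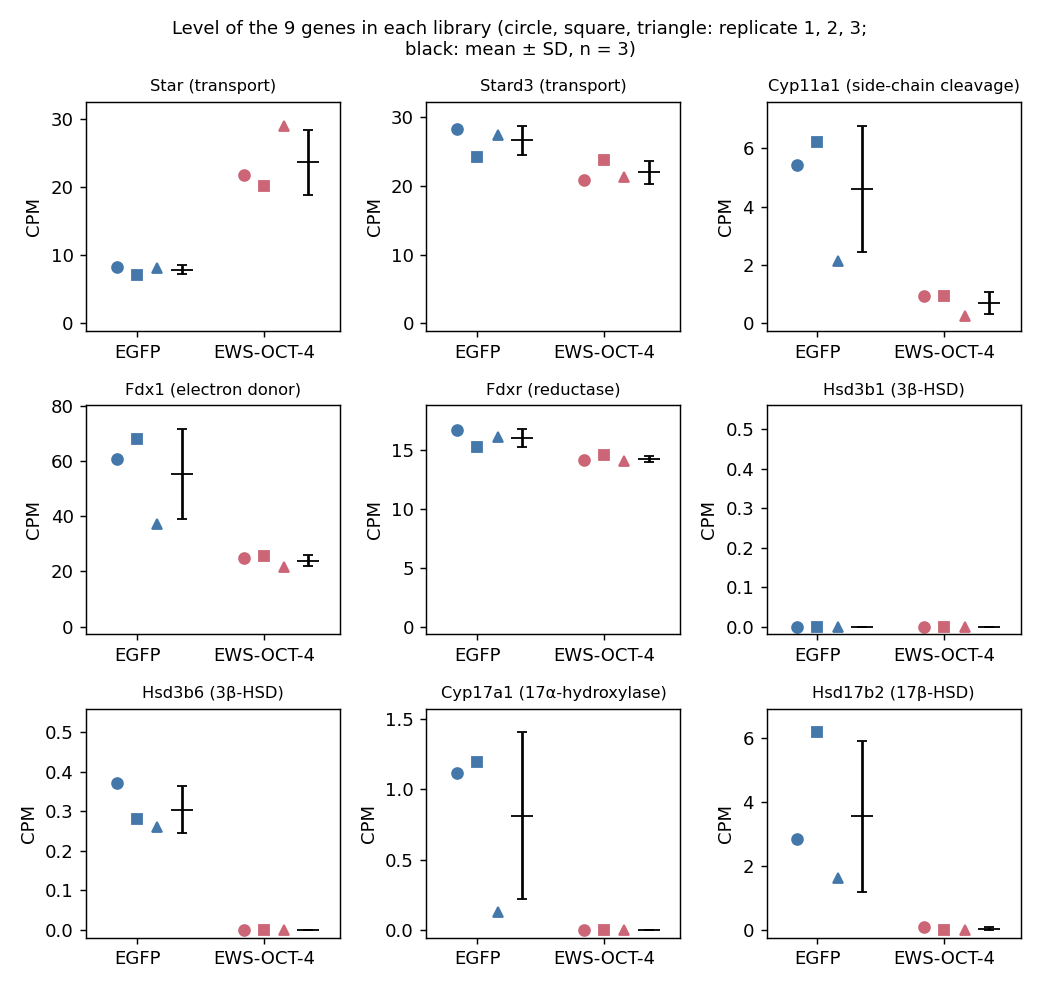
Each panel shows 1 gene in CPM, by line, with 1 point per library (circle, square and triangle for replicates 1, 2 and 3) and the mean ± SD (n = 3) in black. Star sits between 20.1 and 29.0 CPM in the EWS-OCT-4 line and between 7.15 and 8.27 CPM in the EGFP line, while Cyp11a1, Fdx1 and Hsd17b2 are lower in the EWS-OCT-4 line and lowest among the EGFP libraries in replicate 3.

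Of the 2 cholesterol carriers, which act first in the pathway, Star rose and Stard3 did not pass the test. Star, on chromosome 8 (25806555 to 25815982, plus strand, GRCm38), had 111, 102 and 126 counts in the EGFP libraries, against 236, 218 and 346 in the EWS-OCT-4 libraries. In CPM these were 8.27, 7.15 and 8.19 against 21.7, 20.1 and 29.0, so the lines did not overlap and EWS-OCT-4 replicate 3 was the highest. The mean went from 7.87 ± 0.625 to 23.6 ± 4.74 CPM, a log2 difference of 1.59 (SE 0.21, adjusted p = 7.94e-05). Star thus rose in the line in which placental markers were low. Without both libraries numbered 3 the log2 difference was 1.46.

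Stard3, a cholesterol-binding protein of late endosomes on chromosome 11 (98358368 to 98381112, plus strand), was at 28.2, 24.2 and 27.4 CPM in the EGFP libraries, against 20.8, 23.8 and 21.2 CPM in the EWS-OCT-4 libraries. The EWS-OCT-4 libraries were all lower, by a narrow margin, and 72.7% of all tested genes had lines that did not overlap. The difference did not pass the test (log2 -0.28, SE 0.15, adjusted p = 0.135). Within a library, the count of Star divided by that of Stard3 does not depend on scaling. It was 0.293, 0.295 and 0.299 in the EGFP libraries, against 1.04, 0.845 and 1.37 in the EWS-OCT-4 libraries, a difference in mean log2 ratio of 1.85. The exact permutation test of this ratio gave p = 0.1, 2-sided, the smallest that 3 against 3 libraries allow. Star lay wholly above and Stard3 wholly below in the EWS-OCT-4 libraries, so the test could not come out otherwise and adds no support.

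Cyp11a1 encodes the side-chain cleavage enzyme, the entry step of all steroid synthesis. It lies on chromosome 9 (58006411 to 58027023, plus strand), and Gm17322 overlaps its upstream end on the same strand. Its counts were 73, 89 and 33 in the EGFP libraries, against 10, 10 and 3 in the EWS-OCT-4 libraries. In CPM they were 5.44, 6.24 and 2.14 against 0.921, 0.923 and 0.252, so that replicate 3 was the lowest library of each line and the lines did not overlap. The mean fell from 4.61 ± 2.17 to 0.699 ± 0.387 CPM, a log2 difference of -2.72 (SE 0.58, adjusted p = 0.00209). It was -3.06 without EGFP replicate 3 and -2.63 without both libraries numbered 3. The log2 difference stood at percentile 8.29 of all tested genes, counted from the lowest. Cyp11a1 entered the test through the EGFP line only, so the test gives a size rather than support for a direction.

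Fdx1, ferredoxin, donates the electrons that the Cyp11a1 enzyme uses and also serves other mitochondrial cytochromes. It lies on chromosome 9 (51943306 to 51963556, minus strand). It was at 60.9, 68.2 and 37.0 CPM in the EGFP libraries, against 24.7, 25.5 and 21.6 CPM in the EWS-OCT-4 libraries. Again EGFP replicate 3 was the lowest of its line but above every EWS-OCT-4 library. The mean fell from 55.4 ± 16.3 to 23.9 ± 2.07 CPM (log2 -1.21, SE 0.22, adjusted p = 0.000731).

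Fdxr, the reductase that loads ferredoxin with electrons (chromosome 11, 115268024 to 115277050, minus strand), did not pass the test. Its values were 16.8, 15.3 and 16.2 CPM in the EGFP libraries, against 14.2, 14.6 and 14.1 CPM in the EWS-OCT-4 libraries, a log2 difference of -0.17 (SE 0.17, adjusted p = 0.402). All 3 EWS-OCT-4 values lay below the EGFP values, by a narrow margin. The ratio of Fdx1 to Fdxr counts within a library was 3.64, 4.46 and 2.29 in the EGFP line, against 1.74, 1.75 and 1.53 in the EWS-OCT-4 line, a mean log2 difference of -0.999 (exact permutation p = 0.1, the smallest possible). The ratio of Cyp11a1 to Fdx1 was 0.0892, 0.0915 and 0.0579 against 0.0373, 0.0362 and 0.0117, a mean log2 difference of -1.63 (exact permutation p = 0.1). It was -1.08 without EWS-OCT-4 replicate 3, in which Cyp11a1 had only 3 counts.

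Star and Cyp11a1 act on the same molecule, one after the other, and moved in opposite directions. The ratio of Star to Cyp11a1 counts was 1.52, 1.15 and 3.82 in the EGFP libraries, against 23.6, 21.8 and 115 in the EWS-OCT-4 libraries. The mean log2 ratio went from 0.91 ± 0.91 to 5.29 ± 1.36, a difference of 4.37 (exact permutation p = 0.1). This p was fixed in advance, since Star lay wholly above and Cyp11a1 wholly below in the EWS-OCT-4 libraries. Without EWS-OCT-4 replicate 3 the difference was 3.59. A ratio between genes mixes their levels with how well each 3′ end is tagged, so only its change between lines is compared here.

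**Figure D2:**
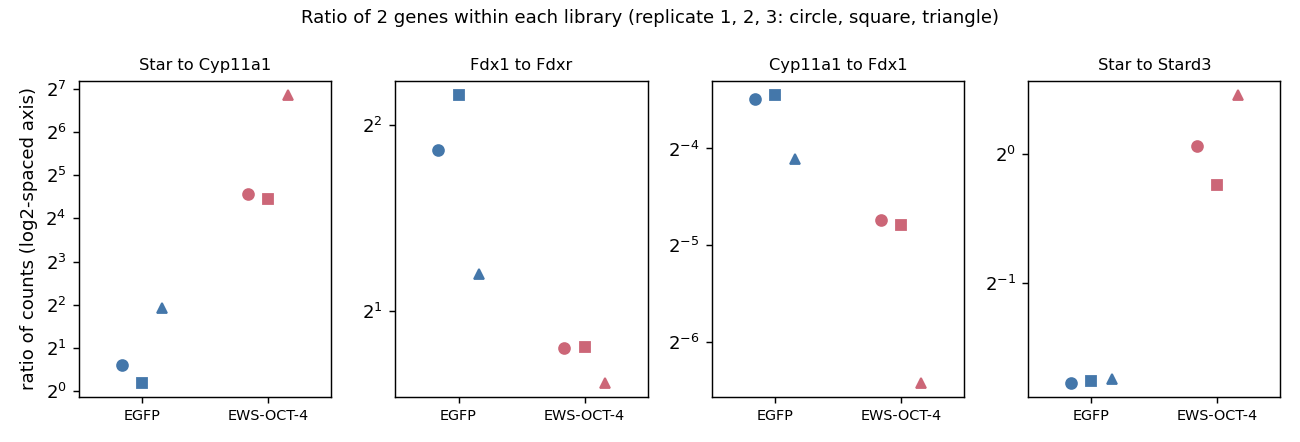
Each panel shows, on a log2-spaced axis, the ratio of the counts of 2 genes within each library, by line and with symbols for replicates 1 to 3. Star relative to Cyp11a1 runs from 1.15 to 3.82 in the EGFP line and from 21.8 to 115 in the EWS-OCT-4 line, and Star relative to Stard3 is nearly the same in the 3 EGFP libraries (0.293 to 0.299).

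The step to progesterone was barely detected. Hsd3b1 (chromosome 3, 98852194 to 98859794, minus strand) had no count in any of the 6 libraries, which allows a level of up to 0.195 to 0.277 CPM per library at a limit of 3 counts. Hsd3b6, the family member known from trophoblast giant cells and Leydig cells (chromosome 3, 98805504 to 98814443, minus strand), had 5, 4 and 4 counts in the EGFP libraries, against none in the EWS-OCT-4 libraries. With the EWS-OCT-4 line set to 3 counts per library, it was at least 1.13-fold lower. Both genes belong to a cluster of similar genes that can share reads. Elsewhere in the family Hsd3b3, Hsd3b4 and Hsd3b5 had 5, 1 and 2 counts in the EGFP line, against 1, 0 and 0 in the EWS-OCT-4 line, and Hsd3b2 had none in either. Hsd3b7, the bile acid enzyme of the family, was the exception with 401 counts against 203, or 9.33 ± 0.541 against 5.98 ± 1.52 CPM. It was called lower (log2 -0.64, SE 0.26, adjusted p = 0.0485), but 9 of 16 alternatives lost that call, among them leaving out EGFP replicate 1, 2 or 3 (adjusted p = 0.115, 0.0912 and 0.0538) or EWS-OCT-4 replicate 1 or 2 (adjusted p = 0.159 and 0.141). It was named after its values were seen. Summing Hsd3b1 and Hsd3b6 gave 13 counts against 0, still too few for the test. Without a filter on low counts, where 50.0% of 18933 genes were called, Hsd3b6 had an adjusted p of 0.039.

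Cyp17a1, whose enzyme makes androgen precursors (chromosome 19, 46667165 to 46673172, minus strand), had 15, 17 and 2 counts in the EGFP libraries, against none in the EWS-OCT-4 libraries. Its EGFP level was 0.813 ± 0.593 CPM, and it was at least 3.03-fold lower in the EWS-OCT-4 line. Nearly all of its counts came from EGFP replicates 1 and 2, and replicate 3 was below the limit of 3 counts. With all 6 libraries it had too few counts for the test. It was tested and called without EGFP replicate 3 (adjusted p = 0.00325, at least 4.30-fold lower), and also without EWS-OCT-4 replicate 1, 2 or 3 (adjusted p = 0.0248, 0.0241 and 0.0269). In each of these it entered the test through its EGFP counts alone. Without a filter its adjusted p was 0.00587.

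Hsd17b2 encodes an enzyme that turns estradiol and testosterone into less active forms (chromosome 8, 117701904 to 117759027, plus strand), and Gm45776 and, on the other strand, Gm31774 lie within it. It had 38, 88 and 25 counts in the EGFP libraries, against 1, 0 and 0 in the EWS-OCT-4 libraries. The EGFP libraries differed among themselves, at 2.83, 6.17 and 1.62 CPM, but all lay above the EWS-OCT-4 libraries. The gene fell (adjusted p = 0.000208), from 3.54 ± 2.35 to 0.0307 ± 0.0532 CPM, and scaled to depth the counts gave a ratio of 118 (20.8 to 4683, exact 95% interval, counting error only). The gene had entered the test through the EGFP line only. The size rests on 1 count: without EWS-OCT-4 replicate 1 it was at least 13.4-fold lower. The ratio was 73.5 without EGFP replicate 2 (interval 12.7 to 2948), 79.8 without EWS-OCT-4 replicate 2 (14.1 to 3173) and 76.0 without EWS-OCT-4 replicate 3 (13.4 to 3022).

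Markers of trophoblast giant cells moved with some of these genes between the lines and, within the EGFP line, in 1 library (replicate 3). The list had 10 markers (Hand1, Prl3d1, Prl3d2, Prl3d3, Prl3b1, Prl2c2, Prl2c3, Prl4a1, Ctsq and Ctsj), and its summed level was 184, 198 and 67.7 CPM in the EGFP libraries, against 0.369, 0.923 and 0 CPM in the EWS-OCT-4 libraries. In the EWS-OCT-4 line 9 of 10 had no count, and Prl3b1 had none in either line. The 4 tested (Hand1, Prl3d1, Prl3d2 and Prl3d3) were called lower, but all 4 entered the test through the EGFP line only, so their count is not read against the 34.1% of all tested genes called lower. Placental lactogen Prl3d1 was at 39.8, 43.8 and 4.74 CPM in the EGFP libraries. EGFP replicate 3 was thus low in giant cell markers and also the lowest EGFP library for Cyp11a1, Fdx1, Cyp17a1, Hsd17b2 and Hsd3b6, but not for Star, Stard3 or Fdxr. On the log2(CPM + 1) scale it lay below the mean of EGFP replicates 1 and 2 by a value of -1.12 for Cyp11a1, -0.998 for Hsd17b2, -0.93 for Cyp17a1, -0.78 for Fdx1 and -0.07 for Hsd3b6, with -2.90 for Prl3d1. For Star, Stard3 and Fdxr the values were 0.08, 0.06 and 0.01. Hsd17b2 differed between EGFP replicates 1 and 2 (2.83 and 6.17 CPM), where the marker sums were 184 and 198 CPM. Cyp11a1 was also lower in EWS-OCT-4 replicate 3 (-0.62), as was Hand1 (-0.70), while the other 9 markers had no count in that line. Markers of other cells also differed in EGFP replicate 3, in both directions. Tpbpa, of spongiotrophoblast, and Syna, of the labyrinth, lay lower there (-2.29 and -0.83), while Gcm1, Cdx2 and Ascl2 lay higher (1.83, 0.66 and 0.50), as did the stem cell factors Sox2 and Nanog (1.38 and 1.23). The part of giant cells or of any other cell type in the fall of the steroid genes was not tested.

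**Figure D3:**
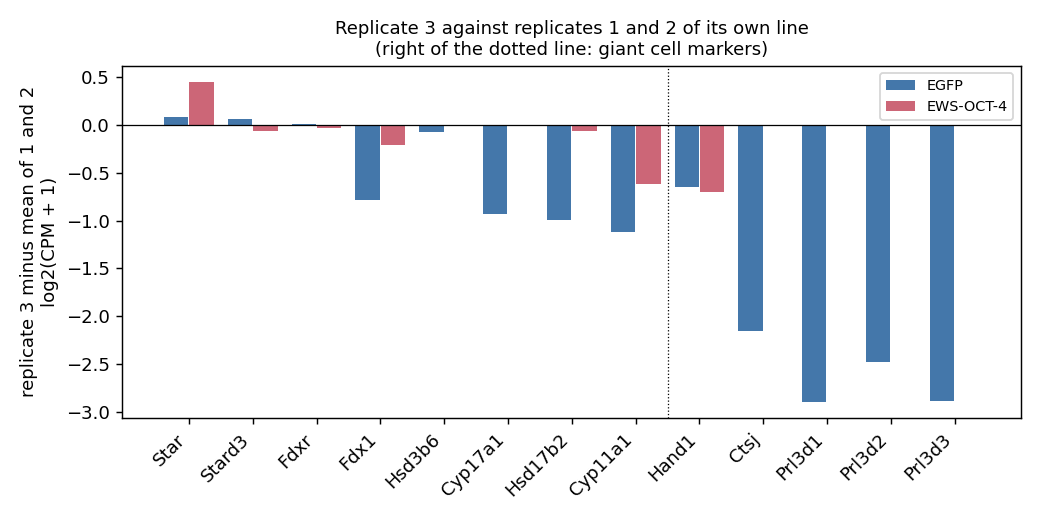
Bars give, for each gene, replicate 3 minus the mean of replicates 1 and 2 of the same line in log2(CPM + 1), blue for EGFP and red for EWS-OCT-4, with giant cell markers right of the dotted line. In the EGFP line the bars of Cyp11a1 (-1.12) and Hsd17b2 (-0.998) point down with those of the giant cell markers, while those of Star (0.08), Stard3 (0.06) and Fdxr (0.01) are near 0.

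The 11 other placental markers that were tested were all called lower. They were Tpbpa, Ascl2, Gcm1, Syna, Cdx2, Eomes, Elf5, Tfap2c, Krt8, Krt18 and Plac1, and Synb was too low to test. Of the 11, 6 (Tpbpa, Gcm1, Syna, Cdx2, Elf5 and Plac1) entered the test through the EGFP line only, and the other 5 through either line. Only those 5 are set against the 34.1% of all tested genes called lower. Gcm1, a labyrinth factor, was at 3.50, 1.19 and 10.1 CPM in the EGFP libraries, against 0.645, 1.38 and 1.17 CPM in the EWS-OCT-4 libraries, so the lines overlapped. Its call (adjusted p = 0.0192) was lost without EGFP replicate 3 (0.131), without EWS-OCT-4 replicate 1 or 3 (0.0645 and 0.0563), without both libraries numbered 3 (0.104) and in limma-voom (0.102). Markers of other steroid-making cells were at or near 0. Of the adrenal cortex list, Cyp11b1 and Cyp11b2 had no count, and Mc2r, Cyp21a1, Nr5a1, Mrap and Akr1b7 made up a sum of 0.587 to 1.49 CPM per library. Of the Leydig list, Insl3 and Lhcgr had no count and Hsd17b3 had 3, with Nr5a1, Cyp17a1 and Hsd3b6 as given here. Of the granulosa list, Fshr and Amh had no count, Cyp19a1 had 2, and Foxl2 and Inhba were below 1.5 CPM in every library. Inha rose from 0.384 ± 0.390 to 2.90 ± 0.712 CPM (log2 2.86, SE 0.74, adjusted p = 0.00599), and its log2 difference was 3.91 without EGFP replicate 3. It entered the test through the EWS-OCT-4 line only. All 8 stem cell markers (Pou5f1, Nanog, Sox2, Zfp42, Esrrb, Klf4, Dppa5a and Utf1) were called higher in the EWS-OCT-4 line. Pou5f1 entered the test through that line only, so only the other 7 are set against the 33.3% of all tested genes called higher. The Pou5f1 call was lost without EWS-OCT-4 replicate 3 (adjusted p = 0.0542).

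Enzymes of the pathway beyond these 9 changed in both directions. Of 32 listed, 31 were in the files, 14 were tested, 6 rose, 6 fell and 2 were not called, with a median log2 difference of -0.23. Over all tested genes 33.3% were called higher and 34.1% lower. Hsd11b2 and Hsd17b6 entered the test through the EGFP line only. Hsd11b2, which protects tissue from glucocorticoids and is known from the placental barrier, fell from 32.6 ± 2.85 to 0.243 ± 0.195 CPM (log2 -7.04, SE 0.35, adjusted p = 1.39e-07, and log2 -7.84 without EWS-OCT-4 replicate 1). Hsd17b6, a retinol and steroid dehydrogenase, had 341 counts in the EGFP line, against 2 in the EWS-OCT-4 line, 133-fold fewer once scaled to depth (36.5 to 1103, exact 95% interval), and 85.8 without EWS-OCT-4 replicate 3 (23.6 to 712). Smaller falls were found for Srd5a3 (34.0 ± 5.62 to 12.9 ± 2.64 CPM), which acts in dolichol synthesis, and for the peroxisomal Hsd17b4 (70.5 ± 20.4 to 29.3 ± 10.4 CPM).

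Hsd17b14, a dehydrogenase with steroid and sugar substrates, rose from 0.956 ± 0.144 to 61.5 ± 8.56 CPM (63.9-fold, SE 0.22 on the log2 scale, adjusted p = 2.44e-08). The lipid droplet enzyme Hsd17b11 rose from 18.0 ± 4.34 to 83.8 ± 13.1 CPM. Within the Hsd17b family, Hsd17b2 and Hsd17b6 were thus low in the EWS-OCT-4 line while Hsd17b14 and Hsd17b11 were high there. Fdx1l, the second ferredoxin, which serves iron-sulphur cluster assembly, was at 30.9 ± 2.51 and 26.8 ± 2.06 CPM and did not pass the test (log2 -0.20, SE 0.15, adjusted p = 0.251, named after its values were seen).

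**Figure D4:**
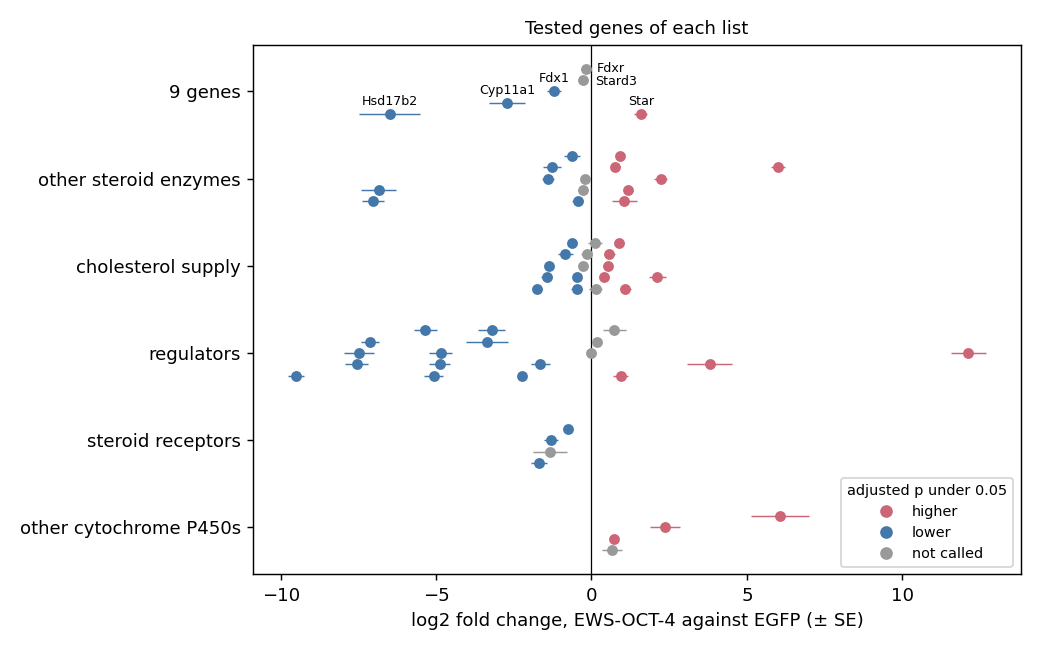
Each point is a tested gene with its log2 difference between the lines (x axis, ± SE), by list, in red where called higher, blue where called lower and grey where not called. Hsd17b2, Cyp11a1 and Fdx1 lie left of 0 and Star right of it, and regulators spread from Gata3 (-9.51) to Nr0b1 (12.13).

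Of 20 listed genes that supply cholesterol, 17 were tested, 6 rose, 7 fell and 4 were not called (median log2 difference -0.15). These 13 calls are near the share of 67.4% over all tested genes. Npc1, which exports cholesterol from lysosomes, fell from 65.1 ± 6.14 to 19.5 ± 2.68 CPM (log2 -1.74, SE 0.16, adjusted p = 6.72e-06). Soat1, which stores cholesterol as ester, fell from 147 ± 8.65 to 56.4 ± 5.70 CPM. The esterases Lipe and Nceh1, which can free stored cholesterol, rose from 3.37 ± 0.887 to 14.6 ± 2.96 CPM and 9.94 ± 0.898 to 21.3 ± 0.768 CPM. The outer mitochondrial channel Vdac1 rose from 282 ± 18.6 to 516 ± 115 CPM.

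Of 19 listed regulators of the pathway and of trophoblast, 18 were tested, 12 fell, 3 rose and 3 did not pass the test (median log2 difference -3.29), against 67.4% called over all tested genes. Gata3, Gata6, Tfap2a, Cebpa, Dlx3, Hand1 and Fosl1 entered the test through the EGFP line only, and Nr0b1 and Gata4 through the EWS-OCT-4 line only. Of the other 9, 5 fell and 1 rose. Gata3 and Gata2, GATA factors of trophoblast, fell from 332 ± 26.7 to 0.453 ± 0.253 CPM and 418 ± 42.7 to 3.02 ± 1.602 CPM. Dlx3, a homeobox factor of the placenta, fell from 397 ± 78.4 to 2.13 ± 1.29 CPM, Cebpa from 34.3 ± 8.24 to 0.849 ± 0.524 CPM, and Hand1, a factor of giant cells, from 77.0 ± 18.7 to 0.430 ± 0.464 CPM. The log2 difference of Hand1 was -7.49, and -8.69 without EWS-OCT-4 replicate 2 or -6.87 without EWS-OCT-4 replicate 3. Nr0b1, a repressor of Nr5a1 that also belongs to the stem cell network, had 1 count in the EGFP line, against 4893 in the EWS-OCT-4 line. Its count was in EGFP replicate 3, without which the gene was at least 680-fold higher.

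Of the 2 NR5A receptors, Nr5a1 was close to absent, with 0, 2 and 4 counts in the EGFP libraries, against none in the EWS-OCT-4 libraries. Other factors that may bind TCAAGG were not examined. Nr5a2, the other NR5A receptor, rose from 49.9 ± 10.9 to 96.4 ± 33.9 CPM (log2 0.95, SE 0.24, adjusted p = 0.00579). Both were named after their values were seen.

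Of 9 listed steroid receptors, 4 were tested, 3 fell and 1 did not pass the test, a share near the 67.4% over all tested genes. The glucocorticoid receptor Nr3c1 fell from 21.8 ± 3.31 to 6.80 ± 2.41 CPM (log2 -1.68, SE 0.26, adjusted p = 0.000273), and the membrane proteins Pgrmc1 and Pgrmc2 fell from 76.6 ± 14.3 to 31.2 ± 9.37 CPM and, for the second, 166 ± 18.6 to 98.7 ± 19.3 CPM. The progesterone receptor Pgr had 2 counts in the EGFP line, against 7 in the EWS-OCT-4 line, and the oestrogen receptor Esr1 had 12 and 0, both too few to test. Of 10 other cytochrome P450 genes of sterol and vitamin metabolism, 4 were tested, 3 rose and 1 did not pass the test. Cyp7b1 and Cyp39a1 entered the test through the EWS-OCT-4 line only, and of the 2 that entered through either line 1 was called higher. Over all tested genes 33.3% were called higher and 67.4% in either direction, so these calls are not read as a result about the list. Cyp51, an enzyme of cholesterol synthesis, rose from 46.3 ± 2.63 to 76.8 ± 8.15 CPM and the hydroxylase Cyp39a1 from 0.660 ± 0.332 to 3.45 ± 0.939 CPM. The oxysterol hydroxylase Cyp7b1 rose from 1 count to 75, 96.1-fold with depth scaling (16.7 to 3847, exact 95% interval). Leaving out EGFP replicate 2, the source of that count, it was at least 10.5-fold higher. The ratio was 61.8 without EGFP replicate 3 (10.8 to 2473) and 63.6 without EWS-OCT-4 replicate 3 (10.6 to 2588).

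The genes with a pattern over the 6 libraries most like that of Cyp11a1 were Zdhhc13, Tmem38b, Psmb9, Arpin and Rnf41. Likeness was the root mean square difference in log2(CPM + 1) after each gene's own mean was subtracted, and it ran from 0.10 (0.0973) for Zdhhc13 to 0.12 (0.118) for Rnf41. The added 1 CPM shrinks differences of genes at low levels, such as Cyp11a1, so likeness here is not likeness in fold. Cyp11a1 fell 6.57-fold and Psmb9 5.75-fold, against 3.36-, 3.50-, 3.60- and 3.46-fold for Zdhhc13, Tmem38b, Arpin and Rnf41. Psmb9, an immunoproteasome subunit, was at 5.66, 5.53 and 2.40 CPM in the EGFP libraries, against 0.921, 1.02 and 0.419 CPM in the EWS-OCT-4 libraries, low in replicate 3 of each line as Cyp11a1 was.

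**Figure D5:**
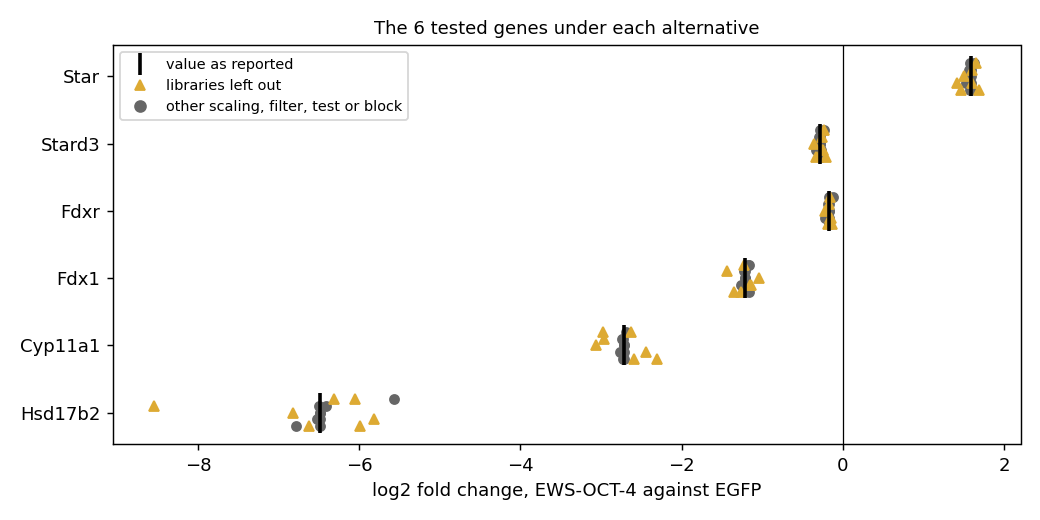
Log2 differences of the 6 tested genes (x axis) are shown as reported (black bar), with libraries left out (triangles) and under other scaling, filters, tests or the block (circles). Star stays between 1.41 and 1.69 and Cyp11a1 between -3.06 and -2.30, while Hsd17b2 spreads from -8.54 to -5.57.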

How the data were processed

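The authors deposited unscaled counts for each gene symbol, as whole numbers, with a file for every library. Per the labels' protocols the libraries were made with a Lexogen QuantSeq kit, which tags 3′ ends, so a count stands for a tag and does not grow with gene length. The submitters' processing notes name Bowtie2, edgeR and mm10. The counter, the annotation and any use of strand were not given in the sources used here, so reads of overlapping genes may be shared.

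Samples were grouped by title. Repeated symbols (35) were summed. Counts were scaled by TMM (factors 0.971 to 1.03) and filtered with filterByExpr (minimum count 10, minimum total 15) in edgeR 4.0.16, and lines were compared with a robust quasi-likelihood F test, 2-sided. A line without counts was set to 3 counts per library. Ratios with 1 to 3 counts carry exact 95% intervals. Limma 3.58.1 and DESeq2 1.42.0 were alternatives. The test was checked on simulated data. Positions are from GENCODE M21 (GRCm38, the assembly of mm10).

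The 9 genes and all lists were chosen with earlier results of these data known. Named from each pathway list were up to 6 called genes with the largest change and a mean of at least 1 CPM, all marker genes, and the 5 genes most like Cyp11a1. Others are marked, and 1 gene that this rule names is not reported here.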

Additional observations from a re-analysis of the deposited data

How the results depend on the processing

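Over 17 alternatives (other scaling, filters, tests and thresholds, a block, and libraries left out) the log2 difference of each of the 6 tested genes kept its direction and its side of the threshold wherever the gene was tested. The adjusted p of Cyp11a1 reached at most 0.0112, that of Star 0.000627, that of Hsd17b2 0.00145 and that of Fdx1 0.00624, while Fdxr and Stard3 had at least 0.268 and 0.0798. For Cyp11a1 and Hsd17b2, which entered the test through the EGFP line only, the kept direction is not read as support. With 1 library left out, 4 to 5 of the 9 genes were called, and 8122 to 9385 of all 13778 to 13909 tested genes. Without both libraries numbered 3, 5 of the 9 were called (75.6% of all tested genes). Without a filter it was 6 of the 9 (50.0% of all 18933), among them Hsd3b6 and Cyp17a1, which had counts in the EGFP line only. With a mean of at least 10 CPM it was 2 of 4 tested (71.0% of all). These counts are not read as a result about the 9 genes. Calls among cholesterol supply genes went from 13 to 6 in a test against a 1.5-fold change, where 47.5% of all genes were called. They went to 8 at an adjusted p of 0.01, where 7386 of all 13467 tested genes were called. Calls among other cytochrome P450s went to 1 with a mean of at least 10 CPM, where 1 was tested and 71.0% of all genes were called. In the test against a 1.5-fold change Pgrmc2, Cyp51 and Nr5a2 were not called (adjusted p = 0.104, 0.105 and 0.0549). With a replicate block, 4 of the 9 genes and 8968 of all genes were called, and no call among the 9 changed. Deviations from the line means correlated at 0.16 between the libraries numbered 3, each other's best match, and at 0.05 and 0.07 for numbers 1 and 2, against 0.10 and 0.09 when crossed. The numbers were not taken as pairs, since not every pair was over 0.1, and what the libraries numbered 3 may share was not tested. With total counts in place of TMM the median of all genes was -0.06 on the log2 scale. A level under 3 counts per library could not be told from 0.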

Other observations

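Some steroid enzymes too low for the test were counted almost wholly in 1 line. Hsd17b1, which makes estradiol from estrone, had no count in the EGFP libraries, against 11, 10 and 6 in the EWS-OCT-4 libraries, at least 3.88-fold higher. Sult1e1, which inactivates estrogen by adding sulphate, had 28, 19 and 0 counts in the EGFP libraries, against none in the EWS-OCT-4 libraries, at least 4.25-fold lower, and was at 0 in EGFP replicate 3. It was at least 2.48-fold lower without EGFP replicate 1. Akr1c14, a hydroxysteroid dehydrogenase, had 36 counts against 1, 28.1-fold with depth scaling (4.73 to 1140, exact 95% interval). Its 1 count was in EWS-OCT-4 replicate 3, without which it was at least 3.05-fold lower, and the ratio was 17.5 without EGFP replicate 2 (2.69 to 737). These genes were named after their values were seen, and intervals cover counting error only.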
